A study of Mus musculus with 20 samples.

Results

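Immune checkpoint genes were followed through a mouse model of colorectal liver metastasis (CRLM). They were Cd274, Pdcd1lg2, Pdcd1, Ctla4, Havcr2, Lag3, Tigit, Cd80, Cd86 and Lgals9, chosen by name, and all 10 were found among the 54532 genes of both count tables. The mice were young adult wild-type C57BL/6, and each library held bulk RNA. Normal liver from mice given normal saline (con, day 0) had 2 libraries. All other mice received MC38 cells, a mouse colon adenocarcinoma line, by splenic injection. Tumor-free liver remote from the tumor (L-con, day 12) had 1 library. Samples of low tumor content (Lt, day 9) and medium tumor content (Mt3 at day 9, Mt2 and Mt1 at day 11) had 2 libraries each, and samples of high tumor content (Ht, day 12) had 3. Cells sorted with microbeads from Mt2 metastases at day 11 gave 3 libraries of F4/80+ cells (F4/80+TAM) and 3 of CD11b+ cells (CD11b+TAM). Lt and Mt3 share day 9 and Mt2 and Mt1 share day 11, but con, Lt and Ht, which are compared here, differ in both day and tumor content, which cannot be told apart among them.

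Checkpoint genes set how strongly T cells respond. Cd274 encodes PD-L1 and Pdcd1lg2 encodes PD-L2, the ligands of the inhibitory T cell receptor PD-1, which Pdcd1 encodes. Cd80 and Cd86 encode the B7 ligands that antigen-presenting cells offer to the activating receptor CD28 and to its inhibitory rival CTLA-4. Havcr2 encodes TIM-3, a receptor of T cells and myeloid cells, and Lgals9 encodes galectin-9, a lectin that binds TIM-3. Lag3 encodes a CD4-related receptor that binds MHC class II, and Tigit encodes a receptor of T and NK cells that binds the poliovirus receptor Pvr and Nectin2. In the liver, such brakes are known for restraining T cells that meet antigen on macrophages and sinusoidal cells.

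The members are scattered over the GRCm38 genome, and some are neighbors. Cd274 (ENSMUSG00000016496, chr19:29367455-29388095, plus strand) and Pdcd1lg2 (ENSMUSG00000016498, chr19:29410919-29471157, plus strand) are 22.8 kb apart. Havcr2 (ENSMUSG00000020399, chr11:46454935-46481255, plus strand) and its ligand gene Lgals9 (ENSMUSG00000001123, chr11:78962974-78984946, minus strand) share chromosome 11. Cd80 (ENSMUSG00000075122, chr16:38455561-38496335, plus strand), Cd86 (ENSMUSG00000022901, chr16:36603869-36666081, minus strand) and Tigit (ENSMUSG00000071552, chr16:43648867-43664146, minus strand) lie on chromosome 16. Pdcd1 (ENSMUSG00000026285, chr1:94038305-94052553, minus strand) and Ctla4 (ENSMUSG00000026011, chr1:60887000-60915832, plus strand) lie on chromosome 1. Lag3 (ENSMUSG00000030124, chr6:124904361-124911705, minus strand) lies 16.1 kb from the T cell coreceptor gene Cd4. Of the 10 genes only Ctla4 overlapped another gene of the tables, the pseudogene Rpl18-ps1 on the same strand, which held at most 17 counts in a tissue library and 9 in a sorted library.

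RefSeq start-site sequences of GRCm38.p6 were given for 8 of the 10 members. The 250 bases before the start site are shown for 4 genes whose RNA behaved differently between the groups: Cd274 and Havcr2, called higher in tumor tissue and in the sorted cells, Tigit, called higher in tumor tissue alone, and Lgals9, called lower in Ht. Each is written 5′ to 3′ on the gene's own strand, and capitals mark a match on either strand to the interferon-stimulated motif, which reads GAAA, any 2 bases, GAAA. The windows are chr19:29367188-29367437 for Cd274, chr11:46454681-46454930 for Havcr2, chr16:43664185-43664434 for Tigit and chr11:78984925-78985174 for Lgals9.
Cd274: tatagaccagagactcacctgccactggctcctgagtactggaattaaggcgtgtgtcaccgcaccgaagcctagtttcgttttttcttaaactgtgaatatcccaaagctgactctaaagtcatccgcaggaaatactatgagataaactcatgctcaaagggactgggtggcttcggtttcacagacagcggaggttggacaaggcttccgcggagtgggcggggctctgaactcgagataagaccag
Havcr2: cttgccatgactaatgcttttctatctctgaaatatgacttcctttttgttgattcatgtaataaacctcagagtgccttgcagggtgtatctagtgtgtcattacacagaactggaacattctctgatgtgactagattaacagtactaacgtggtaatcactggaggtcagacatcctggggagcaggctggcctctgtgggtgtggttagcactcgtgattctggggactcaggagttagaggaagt
Tigit: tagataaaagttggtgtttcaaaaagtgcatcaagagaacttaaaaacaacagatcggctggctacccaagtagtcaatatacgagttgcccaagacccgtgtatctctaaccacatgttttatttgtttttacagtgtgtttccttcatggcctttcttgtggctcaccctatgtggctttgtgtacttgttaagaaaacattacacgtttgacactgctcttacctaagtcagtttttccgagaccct
Lgals9: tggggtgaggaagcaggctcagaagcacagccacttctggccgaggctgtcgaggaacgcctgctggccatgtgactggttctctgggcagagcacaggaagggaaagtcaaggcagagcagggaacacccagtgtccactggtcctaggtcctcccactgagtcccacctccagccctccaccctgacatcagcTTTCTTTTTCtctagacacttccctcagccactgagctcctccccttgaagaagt
The Lgals9 match spans 55 to 46 bases before the start, and 2.98% of the 32851 windows of all listed promoters hold this motif. The palindromic gamma-activated motif TTCNNNGAA, held by 7.02% of all windows, was in none of the 8. These letter matches describe the windows only.

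The tissue libraries held 16032085 to 18246623 counts and the sorted libraries 17785496 to 20548370, so that 3 counts, taken as the floor, stood for 0.146 to 0.187 CPM, the count scaled to library size. Levels below are CPM after TMM scaling, which sets libraries to a common composition, and floors cover counting error only. The study describes Ht libraries 1 and 3 as made identical, and they were summed, leaving Ht with 2 samples. The 2 con libraries were unequal in lymphocyte RNA, with a summed level of 13 T cell markers of 18.9 CPM in con replicate 1 and 5.21 CPM in con replicate 2. The labels give male tissue mice and no sex for the sorted cells, whereas the study's methods give female mice. Xist had 0 to 3 counts in tissue and 5547 to 21805 in sorted libraries, and the Y-linked gene Ddx3y had 348 to 1421 and 0. The sorted libraries and the tissue libraries were thus not made from the same mice. Sex, deposited table and kind of sample therefore cannot be told apart when sorted cells are set against tissue.

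The first question was how checkpoint RNA in metastasis-bearing tissue compared with normal liver. From con to CRLM, the 5 tumor groups weighted equally, 7 of the 10 members rose and none was called lower. The 7 were both PD-1 ligands, the receptors Ctla4, Havcr2 and Tigit, and both B7 ligands. Pdcd1, Lag3 and Lgals9 were not called. A gene was called at an adjusted p of at most 0.05 with a change of at least 2-fold, in the quasi-likelihood test of edgeR, adjusted by Benjamini-Hochberg over the 17187 genes tested, which included all 10 members. Among all genes 35.4% were called, 20.9% as higher and 14.5% as lower. The members' median was 2.07 on the log2 scale, beside 0.07 for all genes. Total-count scaling gave 5937 genes higher and 1216 lower over all genes in place of 3593 and 2498, with 8 members called higher.

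Cd274 had 19 and 39 counts in con, or 1.68 and 3.23 CPM. The Lt samples held 9.10 and 12.2 CPM, the Mt3 samples 9.37 and 14.2, the Mt2 samples 11.4 and 11.2, the Mt1 samples 8.80 and 16.9, and the Ht samples 8.89 and 10.2. All 10 CRLM samples were above both con libraries, and the 5 tumor groups overlapped one another. The rise from con was 2.18 ± 0.36 on the log2 scale (SE, adjusted p = 0.00139 by edgeR's quasi-likelihood test), a 4.53-fold difference. It was called under all 21 alternative analyses, with log2 values from 1.79 to 2.87.

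Pdcd1lg2, the second PD-1 ligand gene, was near the floor throughout tissue. Its counts were 1 and 0 in con, and no tissue library held more than 14. In the CRLM samples it ranged from 0.0717 CPM in Lt replicate 1 to 0.736 CPM in Mt3, with a median of 0.503, and 9 of the 10 were above both con libraries. The CRLM samples held 99 counts against 1 in con, a ratio of 10.3 on TMM-scaled library sizes with an exact 95% counting interval of 1.81 to 411. On total counts the ratio was 17.5 (3.07 to 699). The call (adjusted p = 0.0305, edgeR) was lost with DESeq2 (adjusted p = 0.0533) and without either con replicate.

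Pdcd1, the gene of their receptor, differed strongly between the con libraries, at 1.42 CPM from 16 counts in replicate 1 and at 0 counts in replicate 2. The CRLM samples ran from 0.358 CPM in Lt replicate 1 through a median of 2.68 to 5.54 in Ht replicate 2, and 9 of 10 lay above con. The log2 difference was 1.95 ± 0.98, with a 95% interval from -0.25 to 4.16, and missed the threshold (adjusted p = 0.117, edgeR). The con library kept decided it, since the value was 0.94 without con replicate 2 and 8.82, set against 0 counts, without con replicate 1 (adjusted p = 0.437 and 0.0233, edgeR). It was called in 3 of 20 alternatives, also with no filter and under total-count scaling.

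Ctla4 had 2 and 0 counts in con, both at or under the floor. Its mean for Lt was 0.492 ± 0.494 CPM, for Mt3 1.02 ± 0.593, for Mt2 1.81 ± 0.632, for Mt1 1.36 ± 0.371 and for Ht 0.771 ± 0.141 (SD, n = 2 for each). Mt2 and Mt1 stood above Ht in every sample, and Lt replicate 1, with 2 counts, lay between the con libraries. The CRLM samples held 244 counts against 2 in con, a ratio of 12.7 on TMM-scaled library sizes with an exact 95% counting interval of 3.47 to 105, and 21.6 (5.91 to 179) on total counts. The rise was called (adjusted p = 0.0177, edgeR).

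Its ligand genes Cd80 and Cd86, markers of activated antigen-presenting cells, rose together. Cd80 stood at 1.24 and 0.331 CPM in con and between 1.99 and 4.60 in the CRLM samples, with a median of 2.48. Cd86 stood at 7.97 and 3.31 CPM in con and between 10.2 and 17.5 in the CRLM samples, with a median of 14.6. Neither gene's CRLM samples overlapped con. The log2 changes were 1.74 ± 0.52 for Cd80 (adjusted p = 0.0190) and 1.31 ± 0.32 for Cd86 (adjusted p = 0.00815, both edgeR).

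Havcr2, the TIM-3 gene, had 19 and 3 counts in con, or 1.68 and 0.248 CPM. The Lt samples held 2.87 and 6.60 CPM, the Mt3 samples 4.42 and 7.46, the Mt2 samples 4.91 and 10.4, the Mt1 samples 7.53 and 11.1, and the Ht samples 7.38 and 9.16. Every CRLM sample was above both con libraries, with Lt replicate 1 the lowest. The rise was 2.87 ± 0.66 on the log2 scale (adjusted p = 0.00612, edgeR), and it was called under all 20 alternatives, with log2 values from 2.05 to 4.78.

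Lgals9, the gene of the TIM-3 ligand galectin-9, followed another course. The con libraries held 703 and 707 CPM and the L-con library 728. The Lt samples held 723 and 482 CPM, the Mt3 samples 603 and 597, the Mt2 samples 543 and 239, the Mt1 samples 398 and 237, and the Ht samples 171 and 177. Of the CRLM samples only Lt replicate 1 exceeded both con libraries, and Ht lay below every other sample. The log2 difference from con to CRLM was -0.90 ± 0.29 (adjusted p = 0.0275, edgeR), short of 2-fold and so not called. It was at -0.26 under total-count scaling, and it was called without Mt2 replicate 1, at -1.04.

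Lag3 was not called across tissue. It had 34 and 31 counts in con, or 3.01 and 2.56 CPM, and 2.50 to 4.47 CPM in the CRLM samples, where 7 of 10 lay above both con libraries. The log2 difference was 0.28 ± 0.32, with a 95% interval of -0.44 to 1.00 (adjusted p = 0.478, edgeR). Under total-count scaling it was 0.96 (adjusted p = 0.0547, edgeR), and the mean level on that scale was 1.94 CPM in con and 4.93 CPM over the 3 Ht libraries.

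Tigit showed the highest fitted change. It had 5 and 0 counts in con. The Lt samples held 0.502 and 2.59 CPM, the Mt3 samples 2.54 and 2.76, the Mt2 samples 3.35 and 5.77, the Mt1 samples 2.08 and 6.71, and the Ht samples 4.44 and 5.78. No CRLM sample overlapped con, where the highest value was 0.443 CPM, although Lt replicate 1 came close to it. The log2 change was 3.92 ± 1.01 (adjusted p = 0.00997, edgeR), and its size rested on con counts at or near the floor.

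**Figure D1:**
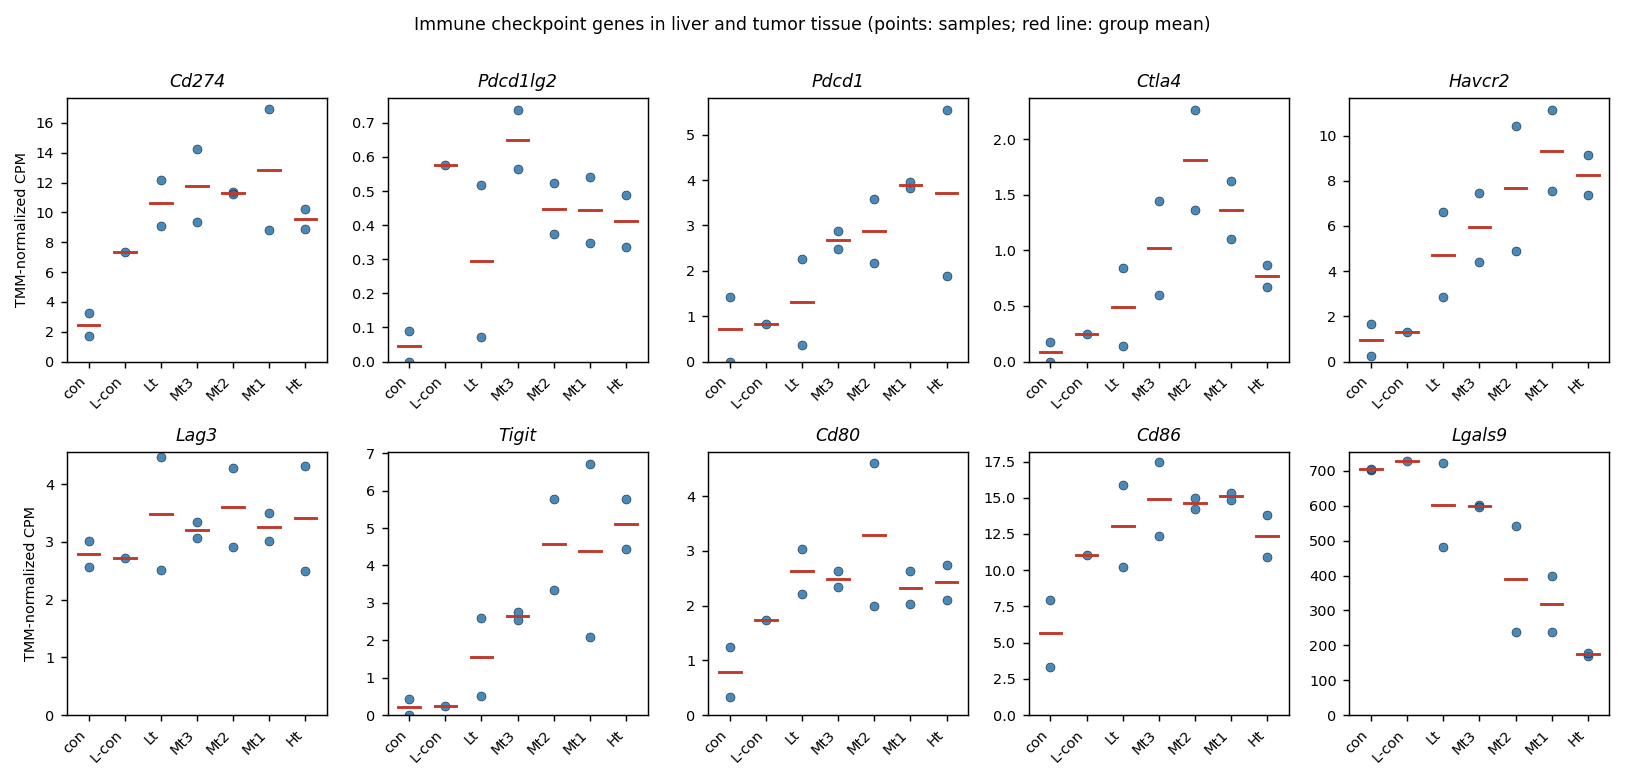
Level of each checkpoint gene in every tissue sample, in TMM-normalized CPM on axes that start at 0 and differ between panels, by group from con to Ht, with points for samples and red lines for group means. Cd274, Havcr2, Tigit, Cd80 and Cd86 lie above con in all 10 CRLM samples, Lag3 overlaps con on this scale, and Lgals9 falls from about 705 CPM in con to 174 CPM in Ht.

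The choice of con library moved most of these values. Without con replicate 2 the calls of Cd274 and Havcr2 remained and those of the other members were lost. Without con replicate 1 Pdcd1 was called and Pdcd1lg2 was not. Both fits also called fewer of all genes than the fit with both libraries. In each case con has 1 library, which the fit assumes to vary like the other groups. The log2 value with both con libraries, without replicate 2 and without replicate 1 was 3.18, 2.23 and 6.20 for Pdcd1lg2, and 3.44, 2.45 and 7.38 for Ctla4. For Tigit it was 3.92, 2.91 and 9.13, for Cd80 1.74, 1.08 and 2.96, and for Cd86 1.31, 0.81 and 2.07. Pdcd1lg2, Ctla4 and Tigit had 0 counts in con replicate 2, so their values without replicate 1 depend on the prior count of the fit and are no measure of size.

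Markers of immune cells moved with these genes. Of 13 T cell markers 8 were called higher, and their summed level was 5.21 to 18.9 CPM in con and 15.8 to 57 CPM in the CRLM samples, with Cd3d alone at 0 in a con library. Of 10 macrophage markers 8 were higher and 1 lower, with summed levels of 447 to 688 CPM in con and 949 to 2061 in CRLM and none at 0. Hepatocyte markers were lower for 7 of 8, falling from a summed 152786 to 181795 CPM in con to 2704 to 148035 CPM. In bulk RNA fewer cells of a type and less RNA per cell cannot be told apart, and the part of these shifts in the checkpoint values was not tested.

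The other immune lists moved as follows from con to CRLM. All 7 monocyte markers, all 7 neutrophil markers tested, 6 of 8 NK cell, 6 of 8 dendritic cell, 2 of 6 B cell, 2 of 4 regulatory T cell and 1 of 6 Kupffer cell markers were higher. Endothelial markers were lower for 3 of 8, and tumor epithelial markers for 1 of 7. The tumor epithelial list already summed to 522 to 567 CPM in tumor-free con, so it is no measure of tumor cells in these samples. Foxp3, the master regulator of regulatory T cells, was at 0.263 ± 0.255 CPM in con and 1.48 ± 0.768 in Mt2 (SD, n = 2). An Lt library had 0 counts of it. Its change from con to CRLM was 1.81 ± 1.07 on the log2 scale and was not called (adjusted p = 0.177, edgeR).

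The partner genes of the members went both ways. Among 12 listed receptors and ligands, 3 rose, 3 fell and 6 were not called, beside 20.9% of all genes called higher and 14.5% lower. Those that rose were the MHC class II genes H2-Aa, H2-Ab1 and H2-Eb1, whose products bind LAG-3, led by H2-Ab1 at a log2 change of 2.02 ± 0.50 (adjusted p = 0.00845, edgeR). Those that fell were Ceacam1, a TIM-3 ligand, at -2.16 ± 0.41, Nectin3 at -1.35 ± 0.30 and the sinusoidal lectin gene Clec4g, a LAG-3 ligand, at -1.24 ± 0.45. Cd28, the activating rival of Ctla4 for the B7 ligands, was at 1.88 ± 0.74 and was not called (adjusted p = 0.0562, edgeR).

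Of 27 other co-signaling genes tested, 21 rose and none fell, with Tnfrsf9 (4-1BB, a costimulatory receptor) at a log2 change of 6.10 ± 1.09, Tnfsf18 (the GITR ligand) at 5.98 ± 1.5 and Tnfsf4 (OX40 ligand) at 5.51 ± 1.91. Interferon-gamma is known to induce PD-L1 in many cells, and of 9 genes tested from its response list 5 rose. Cxcl10, a chemokine of that response, changed by 3.93 ± 0.57 and the feedback inhibitor Socs1 by 3.61 ± 0.39 on the log2 scale. Another chemokine gene of the list, Cxcl9, was at 0.29 ± 0.63 (adjusted p = 0.721, edgeR) and was among the 4 not called. Ifng itself was too low to be tested. The part of interferon-gamma in the Cd274 values was not tested.

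The second question was what the day 9 samples of low tumor content already held. From con to Lt, Cd274 alone was called, with a rise of 2.11 ± 0.41 on the log2 scale (adjusted p = 0.00989, edgeR). Among all genes 12.7% were called, 12.4% as higher and 0.256% as lower. The members' median was 1.93, beside 0.10 for all genes. At an unadjusted p under 0.05 (edgeR) there were 5 members, and 4917 of all 17187 genes. Havcr2 (2.31 ± 0.75, adjusted p = 0.0729), Cd86 (1.22 ± 0.38, adjusted p = 0.0672), Cd80 (1.75 ± 0.61, adjusted p = 0.0918) and Tigit (2.82 ± 1.16, adjusted p = 0.147, all edgeR) missed the threshold.

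The Lt libraries differed from each other. Lt replicate 1 was the lower one for each member except Lgals9, for example at 0.358 against 2.27 CPM for Pdcd1, and its summed T cell markers were 15.8 CPM against 55.9 CPM in Lt replicate 2. Without Lt replicate 2 no member was called (Cd274 at 1.88 against 2.11 with both, adjusted p = 0.0664, edgeR), in a fit where the lone Lt library is assumed to vary like the other groups. Without con replicate 1, 3 members were called and Cd274 was not among them (1.71, adjusted p = 0.0696, edgeR). DESeq2 called 5 members. In the same comparison 3 of 12 partner genes rose, the class II genes again. With them rose 13 of 27 co-signaling genes and 4 of 9 interferon-gamma response genes. Of the myeloid markers 6 of 10 macrophage, 6 of 7 monocyte, 5 of 7 neutrophil and 4 of 8 dendritic cell markers were higher. So were 3 of 8 NK cell, 1 of 4 regulatory T cell and 1 of 6 B cell markers. None of 13 T cell markers was called, and 1 of 7 tumor epithelial markers rose.

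The third question was how low and high tumor content compared. From Lt to Ht, Lgals9 was the one member called, and it fell by 1.79 ± 0.42 on the log2 scale (adjusted p = 0.00894, edgeR). Among all genes 31.9% were called, 20.2% as lower and 11.7% as higher. The members' median was 0.19 against -0.01 for all genes. Total-count scaling moved the median of all genes to 0.87 and gave 6216 genes higher and 2081 lower in place of 2004 and 3476. Under it Lgals9 was at -0.87 and not called, and Tigit was called higher.

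The remaining 9 members were not called between Lt and Ht. Tigit was at 1.70 ± 0.83 (adjusted p = 0.121) and Pdcd1 at 1.47 ± 1.01 (adjusted p = 0.259, both edgeR). Cd274, Lag3, Cd80 and Cd86 lay between -0.16 and -0.04, values whose sign turned under total-count scaling. Their 95% intervals ran from -0.99 to 0.67 for Cd274, from -0.91 to 0.82 for Lag3, from -1.31 to 1.07 for Cd80 and from -0.90 to 0.74 for Cd86. The Lgals9 call was lost without Lt replicate 1 and without either Ht sample, with log2 values between -2.06 and -0.87 over all 13 alternatives.

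Hepatocyte RNA moved with Lgals9. All 8 hepatocyte markers fell from Lt to Ht, from a summed 79177 to 148035 CPM to 2704 to 3914 CPM. Also lower were 5 of 6 Kupffer cell, 5 of 7 tumor epithelial and 3 of 8 endothelial markers. The tumor epithelial list summed to 522 to 567 CPM in con and 113 to 215 CPM in Ht. Its fall is therefore no measure of tumor cell RNA. Of 27 co-signaling genes Cd276, Vsir, Sirpa, Tnfsf9 and Tnfsf18 rose and Icos and Vsig4 fell. The NK cell genes Eomes and Prf1, the monocyte genes Itgam and F13a1, the complement gene C1qb and the neutrophil gene Mmp9 rose, whereas the neutrophil gene Retnlg, the B cell gene Ms4a1 and the dendritic cell gene Siglech fell. None of 13 T cell markers, 4 regulatory T cell markers or 9 interferon-gamma response genes was called. Inside each of the 5 tumor groups, Lgals9 was higher in the library with the higher hepatocyte score in 5 of 5. Its Mt3 and Ht pairs were close to level, at 603 against 597 CPM and 177 against 171 CPM. Pdcd1, Ctla4, Havcr2, Tigit and Cd80 were higher in the library with the lower hepatocyte score in 4 of 5, and in the library with the higher T cell score in 5 of 5. These counts were 3 and 4 of 5 for Cd274 and for Pdcd1lg2, and 2 and 3 of 5 for Lag3 and for Cd86. In Lt, Mt3, Mt2 and Mt1 the library with the lower hepatocyte score also had the higher T cell score. The orders by hepatocyte and by T cell score are therefore not independent. The part of either cell type in these orders was not tested. From Lt to Ht 5 of 12 partner genes were called lower, none higher and 7 were not called, beside 20.2% of all genes called lower. Clec4g changed by -5.23 ± 0.77, Ceacam1 by -4.26 ± 0.70, the hepatocyte-secreted LAG-3 ligand Fgl1 by -4.10 ± 0.60, Nectin3 by -1.93 ± 0.44 and the TIGIT ligand Nectin2 by -1.28 ± 0.27.

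**Figure D2:**
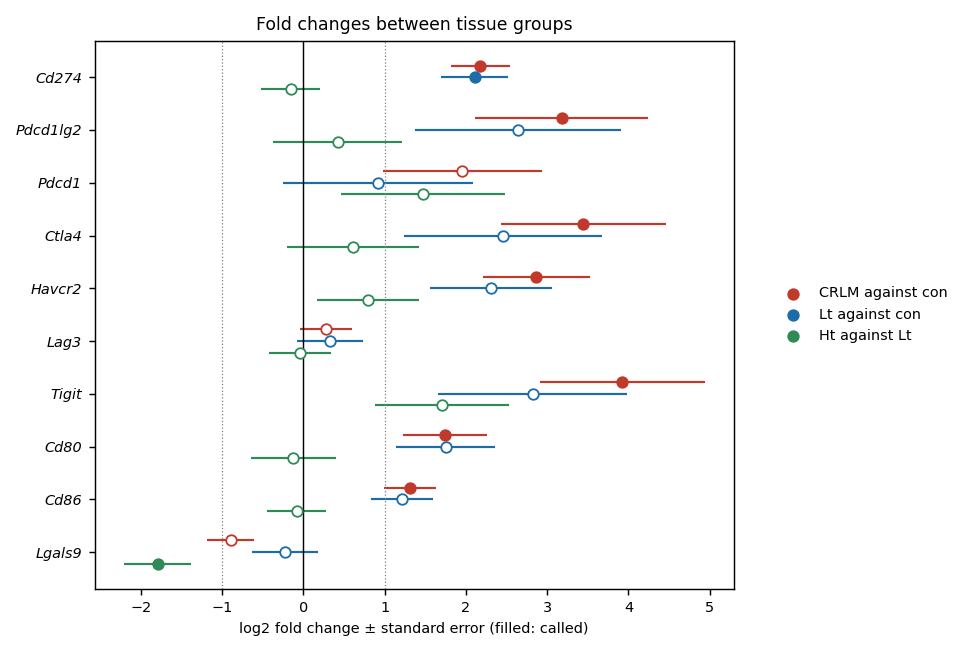
Log2 fold change with its standard error for each checkpoint gene in 3 tissue comparisons, CRLM against con (red), Lt against con (blue) and Ht against Lt (green). Filled points were called and open points were not, and dotted lines mark a 2-fold change. Of the red points 7 are filled, of the blue points Cd274 alone, and of the green points Lgals9 alone.

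The comparisons with con share its libraries, and con to Lt and Lt to Ht share the Lt libraries, so their values are set side by side only as each fit gave them.

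Over the 13 tissue samples the genes most like each member were sought among 12944 or 12945 genes with a mean log2 CPM of at least 1, by Pearson's r of log2(CPM + 1). Cd274 was closest to Parp14 (r = 0.955), a gene known for interferon responses, and Cd86 to Mpeg1 (0.967), the macrophage perforin gene. Havcr2 was closest to Gpr171 (0.990), Tigit to Tnfrsf23 (0.984) and Ctla4 to Rgs1 (0.948). Cd80 was closest to the T cell gene Cd3d (0.925), Pdcd1 to Elf1 (0.942) and Lgals9 to Echdc1 (0.994). For Lag3 the highest value was 0.739, with Rnf19b, and for Pdcd1lg2 it was 0.871, with Itgb3bp. Many genes share the broad course of the tissue series, since 1995 genes reached 0.9 with Havcr2, 2108 with Tigit and 2975 with Lgals9, against 48 with Cd274. Among the members Havcr2 and Tigit had r = 0.938, and Tigit and Lgals9 had -0.826. The points share libraries, scaling and tumor content, so these values are descriptions.

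The next question was which members were enriched in the sorted myeloid cells over the Mt2 tissue libraries. Levels from here on are on a common scale of the tissue and sorted samples. From Mt2 tissue to F4/80+TAM, 6 of the 10 members rose and none was called lower, while among all 18407 genes 42.3% were called, 17.2% as higher and 25.2% as lower. From Mt2 tissue to CD11b+TAM, 6 rose and none was called lower, while 43.9% of all genes were called, 17.6% as higher and 26.3% as lower. The 6 in each were Cd274, Pdcd1lg2, Cd80, Cd86, Havcr2 and Lag3. Both comparisons use the same 2 Mt2 samples. The members' medians were 2.01 and 1.78 on the log2 scale, beside -0.12 and -0.08 for all genes.

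Havcr2 stood at 5.14 and 10.9 CPM in Mt2 tissue. The F4/80+ libraries held 78.7, 93.2 and 86.6 CPM and the CD11b+ libraries 63.9, 86.8 and 58.3. The sorted libraries lay far above the tissue ones. The log2 changes were 3.41 ± 0.48 (adjusted p = 3.42e-05) and 3.10 ± 0.47 (adjusted p = 6.38e-05, both edgeR), or 10.6-fold and 8.60-fold.

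Cd274 stood at 11.9 and 11.8 CPM in Mt2 tissue. Values were 61.3, 84.8 and 45.6 CPM for the F4/80+ libraries and, for the CD11b+ libraries, 45.9, 38.8 and 54.2. All sorted libraries were above tissue, and the sorted populations overlapped each other. Its log2 changes were 2.43 ± 0.35 (adjusted p = 4.16e-05) and 1.97 ± 0.34 (adjusted p = 0.000210, both edgeR).

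Cd86 stood at 15.7 and 14.9 CPM in Mt2 tissue. The F4/80+ libraries held 75.5, 74.3 and 64.5 CPM and the CD11b+ libraries 49.7, 49.0 and 61.3. Cd80 stood at 2.08 and 4.82, at 15.2, 15.5 and 15.3, and at 15.6, 16.8 and 23.8 CPM in the same order. For both B7 ligands the sorted cells were above tissue in every library. The log2 changes in F4/80+TAM and CD11b+TAM were 2.22 ± 0.30 and 1.80 ± 0.29 for Cd86 and 2.13 ± 0.39 and 2.42 ± 0.40 for Cd80, with adjusted p from 2.12e-05 to 0.000371 (edgeR).

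Pdcd1lg2 stood at 0.391 and 0.550 CPM in Mt2 tissue. In F4/80+ cells the libraries held 0.556, 4.62 and 1.28 CPM, and in CD11b+ cells 1.76, 1.18 and 3.71. The lowest F4/80+ library, with 11 counts, was level with tissue, where counts were 6 and 13. Its calls were the narrowest (log2 changes 2.16 ± 0.87 and 2.19 ± 0.87, adjusted p = 0.0473 and 0.0435, edgeR) and were lost without either Mt2 sample, under total-count scaling and without the highest library of each sorted population, where the log2 values were 0.98 and 1.61. The F4/80+TAM call was also lost with the compared groups alone (adjusted p = 0.114, edgeR).

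Lag3, which was not called from con to CRLM, was higher in the sorted cells. It stood at 4.49 and 3.05 CPM in Mt2 tissue. The F4/80+ libraries held 14, 14.5 and 13.2 CPM and the CD11b+ libraries 13.4, 6.26 and 18.6. The CD11b+ libraries spread widely but all lay above tissue. The log2 changes were 1.89 ± 0.41 (adjusted p = 0.00137) and 1.76 ± 0.41 (adjusted p = 0.00214, both edgeR). Cd4, its neighbor on chromosome 6 and a relative of LAG-3 in structure, was the one T cell marker of 13 called higher, with means of 3.91 ± 0.268 CPM for Mt2 (SD, n = 2), 14.6 ± 1.86 for the F4/80+ and 10.5 ± 3.28 for the CD11b+ libraries (SD, n = 3).

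**Figure D3:**
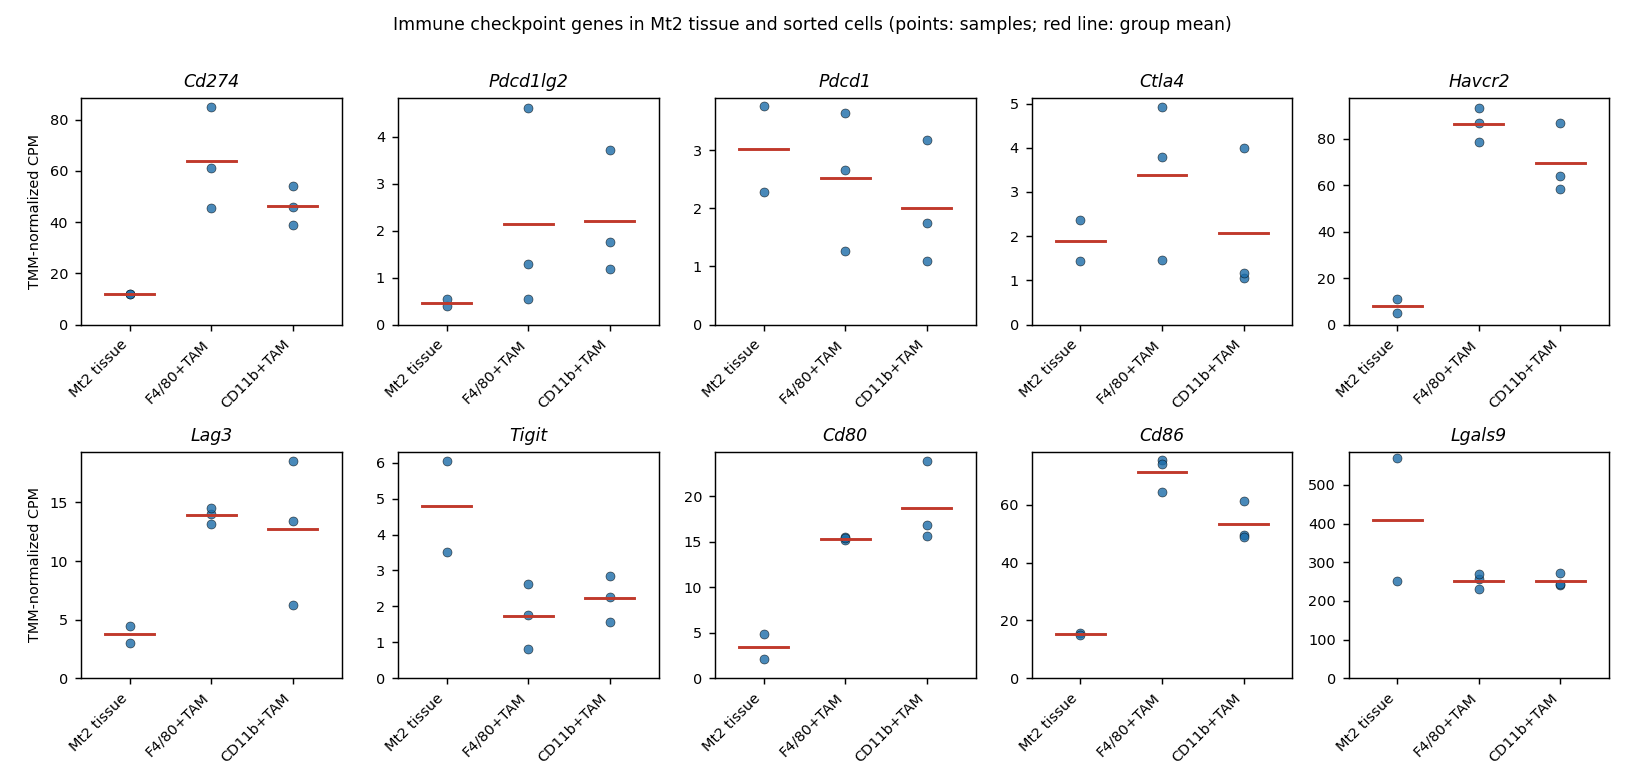
Level of each checkpoint gene in Mt2 tissue (2 samples), F4/80+TAM and CD11b+TAM (3 libraries each), in TMM-normalized CPM on a common scale with axes that start at 0 and differ between panels. Points are samples and red lines are group means. Cd274, Havcr2, Lag3, Cd80 and Cd86 are above tissue in all 6 sorted libraries, and Tigit is below tissue in all 6.

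The T cell receptors Pdcd1, Ctla4 and Tigit were not called in either sorted population. Tigit stood at 3.52 and 6.05 CPM in Mt2 tissue. The F4/80+ libraries held 0.808, 1.77 and 2.61 CPM and the CD11b+ libraries 2.85, 1.57 and 2.26. All sorted libraries were below tissue. Its log2 values were -1.47 ± 0.67 (adjusted p = 0.0759) and -1.11 ± 0.66 (adjusted p = 0.165, both edgeR), and with genes left unfiltered it was called lower in both comparisons. Pdcd1 stood at 2.28 and 3.76 CPM in tissue and between 1.10 and 3.64 in the sorted libraries. Ctla4 stood at 1.43 and 2.37 CPM in tissue and between 1.06 and 4.93 in the sorted libraries.

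T cell RNA was still present after sorting. The summed level of the 13 T cell markers was 37.1 to 56.9 CPM for Mt2 tissue. Sums were 27.4 to 49.4 CPM for the F4/80+ and 22.8 to 54.6 CPM for the CD11b+ libraries. None of the markers was at 0 in Mt2 tissue or in the sorted libraries. These sums include Cd4, the only marker called higher. The typical marker was lower than in Mt2 tissue, although none was called lower. Median log2 changes of the markers were -0.88 (F4/80+TAM) and -0.71 (CD11b+TAM), beside -0.12 and -0.08 for all genes. Cd3e, the gene of a CD3 chain in the T cell receptor complex, averaged 1.78 ± 0.589 CPM for tissue (SD, n = 2). It averaged 1.52 ± 0.748 for the F4/80+ and 1.10 ± 0.932 for the CD11b+ libraries (SD, n = 3). The part of these cells in the sorted values of Pdcd1, Ctla4, Tigit and Lag3 was not tested.

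Lgals9, unlike its receptor gene Havcr2, was not enriched in the sorted cells. It stood at 569 and 251 CPM in Mt2 tissue. The F4/80+ libraries held 258, 230 and 269 CPM and the CD11b+ libraries 241, 271 and 243. The 2 Mt2 samples differed from each other by more than the 6 sorted libraries did. The log2 values were -0.70 ± 0.30 in both comparisons (adjusted p = 0.0643 and 0.0618, edgeR). Which Mt2 sample was used decided them. Without Mt2 replicate 1 they were 0.0088 and 0.0056, and without Mt2 replicate 2 they were -1.13 and -1.15 and both were called lower.

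The sorted libraries carried the markers their names call for. All 10 macrophage markers were higher than in Mt2 tissue in both populations, among them the F4/80 gene Adgre1, whose mean was 734 ± 47.0 CPM for the F4/80+ and 530 ± 20.2 for the CD11b+ libraries (SD, n = 3) against 113 ± 16.2 for tissue (SD, n = 2). All 7 monocyte markers were higher and all 8 hepatocyte markers lower in both. In F4/80+TAM 1 of 6 Kupffer cell, 5 of 8 neutrophil, 2 of 8 dendritic cell, 1 of 8 NK cell and 1 of 6 B cell markers were higher, and 1 neutrophil, 2 NK cell and 1 dendritic cell marker, 3 of 8 endothelial and 6 of 7 tumor epithelial markers were lower. In CD11b+TAM 7 of 8 neutrophil, 5 of 8 dendritic cell, 1 of 8 NK cell and 1 of 6 B cell markers were higher, and 1 NK cell and 1 dendritic cell marker, 5 of 6 Kupffer cell, 5 of 8 endothelial and 5 of 7 tumor epithelial markers were lower.

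The partner genes separated in the same way in both populations. H2-Aa, H2-Ab1 and H2-Eb1 were higher and Nectin2, Nectin3, Ceacam1, Fgl1 and Clec4g lower than in Mt2 tissue. H2-Eb1 changed by 4.22 ± 0.87 in F4/80+TAM and 4.77 ± 0.90 in CD11b+TAM, and the TIGIT ligand Nectin2 by -2.23 ± 0.23 and -2.52 ± 0.24 on the log2 scale. Pvr, the other TIGIT ligand, was at 0.49 ± 0.21 and 0.14 ± 0.21 and was not called. Of 27 co-signaling genes 13 were higher in each, 12 of them shared. Vsig4 was called higher in F4/80+TAM (1.68 ± 0.60) and lower in CD11b+TAM (-2.05 ± 0.57), and Siglecg was called higher in CD11b+TAM (2.45 ± 0.46) but not in F4/80+TAM (0.09 ± 0.45). Set against each other, the sorted populations differed by 3.68 ± 0.56 for Vsig4 and -2.41 ± 0.40 for Siglecg on the log2 scale, and neither was called (adjusted p = 0.0615 and 0.0666, edgeR). The shared genes included Vsir, the gene of the inhibitory ligand VISTA, at 3.59 ± 0.30 and 3.68 ± 0.30. Another 2 were lower in F4/80+TAM and 4 in CD11b+TAM, led by Vtcn1 (B7-H4) at -4.25 ± 1.32 and -6.09 ± 1.6. Of 9 interferon-gamma response genes 6 were higher in each, led by the chemokine gene Cxcl9 at 2.66 ± 0.87 and 2.55 ± 0.87.

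**Figure D4:**
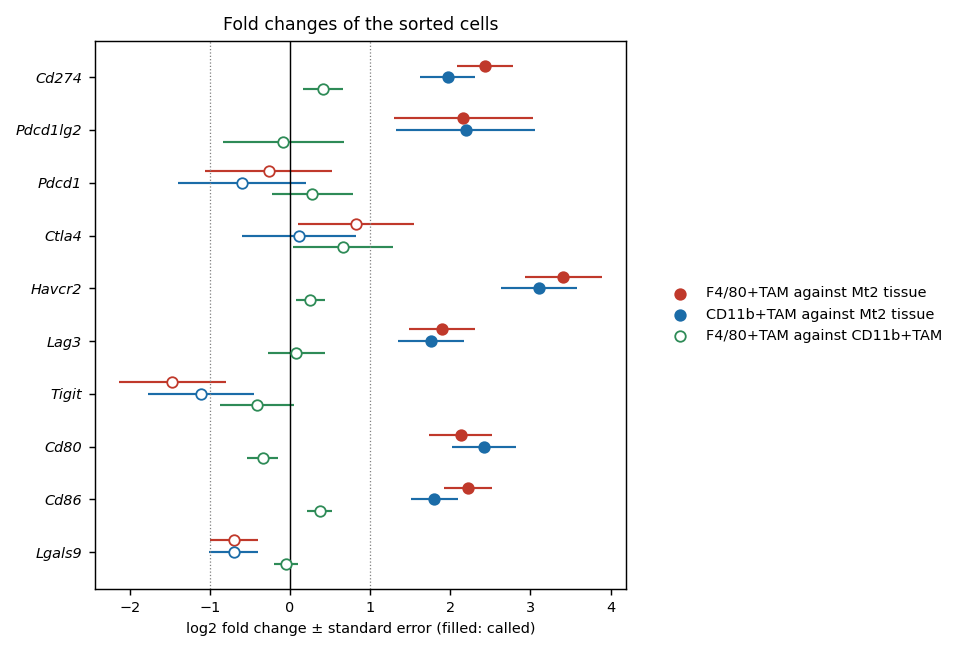
Log2 fold change with its standard error for each checkpoint gene in F4/80+TAM against Mt2 tissue (red), CD11b+TAM against Mt2 tissue (blue) and F4/80+TAM against CD11b+TAM (green). Filled points were called and open points were not, and dotted lines mark a 2-fold change. The same 6 genes are filled in red and in blue, and no green point is filled.

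Between the sorted populations no member was called by the quasi-likelihood test of edgeR, nor by DESeq2. By edgeR 1 member had an unadjusted p under 0.05, as did 1503 of the 14263 genes. Among all 14263 genes tested 0.0771% were called, 11 genes in all, 0.00701% as higher in F4/80+TAM and 0.0701% as lower. DESeq2 called 300 genes. The 1 member was Cd86, at a log2 difference of 0.37 ± 0.15 toward F4/80+TAM (unadjusted p = 0.0443, adjusted p = 0.470), with every F4/80+ library above every CD11b+ library. The 95% intervals were from -0.15 to 0.98 for Cd274, -0.16 to 0.67 for Havcr2, -0.80 to 0.11 for Cd80 and -0.39 to 0.29 for Lgals9, whose sign turned under total-count scaling. They were wider for Pdcd1lg2 (-1.84 to 1.66, with a sign that also turned), Ctla4 (-0.79 to 2.11), Tigit (-1.48 to 0.66), Pdcd1 (-0.90 to 1.46) and Lag3 (-0.74 to 0.90). These intervals exclude a 2-fold difference for Cd274, Havcr2, Cd80, Cd86, Lag3 and Lgals9, and not for the other 4.

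Markers of other myeloid cells were set beside these values. The median log2 difference was 3.36 for the 6 Kupffer cell markers and -3.48 for the 8 neutrophil markers, none of them called, and the dendritic cell migration receptor gene Ccr7 was lower in F4/80+TAM by 2.08 ± 0.18 (adjusted p = 0.0284, edgeR). S100a8, a neutrophil gene, averaged 31.4 ± 42.1 CPM for the F4/80+ and 571 ± 641 for the CD11b+ libraries (SD, n = 3). None of 12 partner genes, 24 co-signaling genes, 9 interferon-gamma response genes or 13 T cell markers tested was called.

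Levels between the genes can be compared only per gene length, as FPKM, the CPM per kilobase of deposited gene length. In F4/80+TAM the order was Lgals9 at 118 ± 9.46, Havcr2 at 31.7 ± 2.66, Cd86 at 19.5 ± 1.64, Cd274 at 17.6 ± 5.45, Lag3 at 6.59 ± 0.320 and Cd80 at 4.14 ± 0.0435 FPKM (SD, n = 3). Cd86 and Cd274 overlapped, and the other neighbors in this stretch did not. Tigit, Ctla4, Pdcd1lg2 and Pdcd1 followed between 1.88 and 1.31 FPKM, each overlapping the next.

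In CD11b+TAM the first 6 genes stood in the same order, from 118 ± 7.82 FPKM for Lgals9 and 25.6 ± 5.55 for Havcr2 down to 6.04 ± 2.93 for Lag3 and 5.06 ± 1.2 for Cd80. Here Cd86 overlapped Cd274 and Lag3 overlapped Cd80. In Mt2 tissue the order differed below Lgals9 at 192 ± 105 FPKM, with Tigit next at 5.20 ± 1.95, then Cd86 at 4.18 ± 0.146 and Cd274 at 3.27 ± 0.0300 (SD, n = 2), and Tigit overlapped Cd86. Pdcd1lg2 was lowest in tissue at 0.286 ± 0.0685 FPKM.

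**Figure D5:**
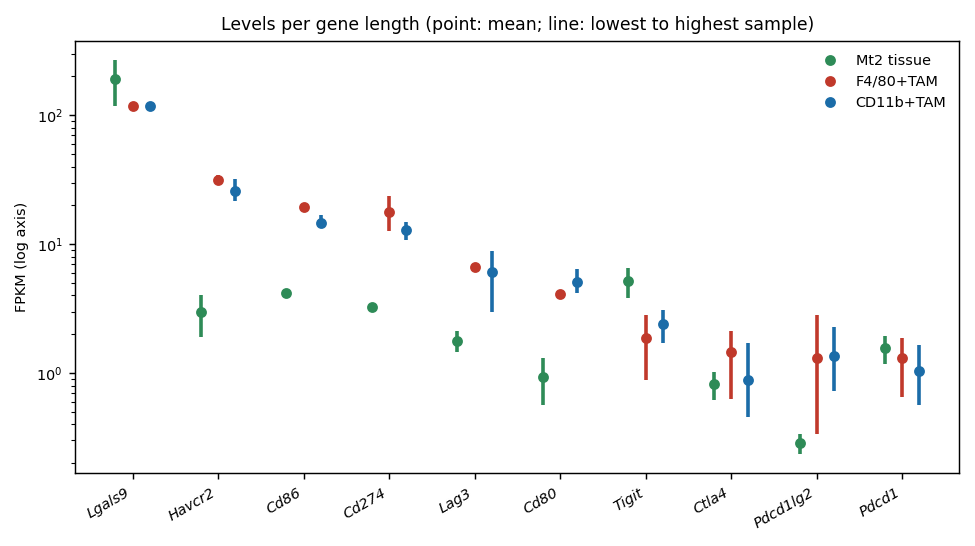
Level per gene length of each checkpoint gene in FPKM on a log axis, for Mt2 tissue (green), F4/80+TAM (red) and CD11b+TAM (blue), with points for means and lines from the lowest to the highest sample. Lgals9 is highest in every group, Havcr2, Cd86 and Cd274 follow in both sorted populations, and Tigit is second in tissue.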

How the data were processed

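Bulk RNA was extracted with TRIzol and made into libraries with the NEBNext Ultra kit. The authors deposited raw read counts per gene, without normalization, in 1 table of the 14 tissue libraries and 1 of the 6 sorted libraries. Per the submitters' processing notes, CASAVA, HISAT2 2.0.5, featureCounts 1.5.0-p3 and GRCm38 (mm10) were used. Strand handling is not given in the sources used here. Columns were matched to samples by the codes in their names, and the sorted table, which has no gene names, was matched by Ensembl identifier. Groups come from the labels. The study's methods give 2 livers per tissue group other than L-con and call the replicates biological, but the labels do not tie libraries to mice, so p-values measure the spread between these samples, which may in part be technical.

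Tests were run in R 4.3.3 with edgeR 4.0.16 (TMM scaling, filterByExpr, quasi-likelihood F test, Benjamini-Hochberg adjustment) on 13 tissue samples (17187 genes), 6 sorted libraries (14263 genes) or all 19 (18407 genes). Standard errors were derived from the F statistic. Ht libraries 1 and 3 were summed because the study's methods call them identical, although their chi-square per degree of freedom was 27.6, against 26.7 between libraries 1 and 2 and 12.1 between libraries 2 and 3, so that they were the least alike of the 3 pairs. The single L-con library was fitted and compared with nothing. Counts of 3 or fewer were taken as at the floor. List scores are means of log2(CPM + 1). Scripts were tested on simulated data.

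The members and gene lists were chosen with earlier results of these data known. Named genes were the members, partner genes that were called or set beside a member, up to 3 called genes with the largest change per list and comparison, 12 defining markers and, for each member, the 3 genes of most alike pattern. Alternatives were DESeq2 1.42.0, its size factors, total-count scaling, no filter, at least 10 counts in every library, no fold threshold, only the groups compared, a replicate block, Ht as 3 libraries and leaving out each replicate. Python 3.11.15, pandas 2.3.3, scipy 1.17.1 and matplotlib 3.10.9 were used for summaries and figures.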

Additional observations from a re-analysis of the deposited data

Results flagged for a closer look

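The single L-con library, taken at day 12 from liver remote from the tumor, entered no comparison. Cd274, Cd86, Cd80, Pdcd1lg2 and Lgals9 stood above both con libraries and above the floor in it. The share of all genes that did so was not counted, so this is only a description of the library. Cd274 was at 7.33 CPM in L-con against 1.68 and 3.23 CPM in con, and the 10 CRLM samples began at 8.80. Cd86 was at 11.0 CPM against 7.97 and 3.31, inside the CRLM range of 10.2 to 17.5 CPM. Cd80 was at 1.73 CPM against 1.24 and 0.331. Pdcd1lg2 was at 0.577 CPM, from 7 counts, against 1 and 0 counts in con. Lgals9 was at 728 CPM against 703 and 707, a difference of a few percent. Ctla4 was also above both con libraries, at 0.247 CPM, but from 3 counts, at the floor. Pdcd1 at 0.824 CPM, Havcr2 at 1.32, Lag3 at 2.72 and Tigit at 0.247, from 3 counts, lay between the con libraries. With 1 library there is no replicate check and no test. Macrophage markers in L-con summed to 977 CPM, above the 447 to 688 CPM of con, and the T cell markers to 14.7 CPM, within con, and their part in these values was not tested.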

How the results depend on the processing

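Cd274 and Havcr2 from con to CRLM, and Cd274, Havcr2, Lag3, Cd80 and Cd86 from Mt2 tissue to either sorted population, were called under every alternative that tested them. A minimum of 10 counts in every library left 4 members to test in tissue and in the fit of tissue with sorted cells, of which 2 were called from con to CRLM and 3 from Mt2 tissue to either population, and all 10 between the sorted populations, with none called. From con to Lt DESeq2 and no filter each called 5 members in place of 1, and from Lt to Ht no filter called 3 in place of 1. Leaving out 1 replicate gave 2 to 8 members from con to CRLM, 0 to 3 from con to Lt, 0 to 2 from Lt to Ht, 0 between the sorted populations and 5 to 6 in each of the others. Levels in total-count CPM left the same 5 members with all CRLM samples above con. The share of all genes with this order was not counted on either scale. Total-count scaling moved the median log2 change of all genes from 0.07 to 0.75 (con to CRLM), from 0.10 to 0.40 (con to Lt) and from -0.01 to 0.87 (Lt to Ht).

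Signs turned for the values below. Under total-count scaling Lgals9 was at 0.038 from con to Lt, Cd274 at 0.72, Lag3 at 0.81, Cd80 at 0.75 and Cd86 at 0.78 from Lt to Ht, and Pdcd1lg2 at 0.062 and Lgals9 at 0.041 between the sorted populations, where Lgals9 was at 0.0030 in the joint fit. From Lt to Ht Lag3 was at 0.052 with DESeq2, 0.058 with its size factors, 0.078 with no filter and 0.031 with at least 10 counts, Cd86 at 0.019, 0.018, 0.042 and 0.0011, and Cd80 at 0.00031 with no filter. Leaving out a replicate gave log2 ranges across 0 for Pdcd1 (-0.95 to 7.77), Lag3 (-0.15 to 0.66) and Lgals9 (-0.57 to 0.038) from con to Lt. From Lt to Ht they were -0.33 to 0.068 for Cd274, -0.33 to 2.40 for Pdcd1lg2, -0.12 to 2.37 for Ctla4, -0.48 to 0.43 for Lag3, -0.32 to 0.12 for Cd80 and -0.34 to 0.27 for Cd86. Between the sorted populations they were -1.31 to 0.51 for Pdcd1lg2, -0.078 to 0.78 for Pdcd1, -0.26 to 0.46 for Lag3 and -0.10 to 0.017 for Lgals9. From Mt2 tissue they were -0.59 to 0.19 for Pdcd1 and -1.13 to 0.0088 for Lgals9 in F4/80+TAM, and -0.75 to 0.56 for Ctla4 and -1.15 to 0.0056 for Lgals9 in CD11b+TAM. The cause was not tested.

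The replicate numbers did not pair the samples, since same-numbered samples had correlations of their deviations between -0.12 and 0.10. The replicate block called 7 members from con to CRLM, 1 from con to Lt, 1 from Lt to Ht, 0 between the sorted populations and 5 in each of the others, where Pdcd1lg2 was lost. With the con numbers exchanged, an alternative chosen after seeing the data, 4 members were called from con to Lt. Over all genes the block moved the count between the sorted populations from 11 to 78, and DESeq2 to 300. Against the CD11b+ libraries, no F4/80+ library correlated best with its own number.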
